A study of Caenorhabditis elegans with 6 samples.

Results

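The genes described here are bcf-1, the gene that carries the ylf1 mutation, its neighbour gfi-1, and the genes of the intestinal GATA factors, elt-2 and elt-7. They were chosen by name, as 4 of the 20894 rows of the deposited expression table, by their locus tags and RefSeq symbols, and all 4 were tested. RNA was sequenced from whole Caenorhabditis elegans of 2 genotypes, the mutant bcf-1(ylf1) and the wild-type strain N2. Both were labelled as adults and grew on the Escherichia coli strain OP50, the usual laboratory food bacterium, and each genotype had 3 biological replicates. The nature of the ylf1 allele is not stated in the labels. Values are read as FPKM, a count of fragments scaled to transcript length and library size, which allows levels of different genes to be compared per length.

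The intestine of C. elegans forms the boundary between the animal and the bacteria it eats, and the series title describes BCF-1 as an N-glycosylated intestinal protein that binds bacteria. GATA factors are zinc finger proteins that bind DNA at GATA sequences. In the worm embryo, MED-1 and MED-2 act upstream of END-1 and END-3, which specify the endoderm. ELT-2 and ELT-7 then maintain the intestinal state, with ELT-2 as the main regulator of intestinal genes through adult life. Other GATA factors of the family, among them ELT-1, ELT-3, EGL-18 and ELT-6, act mainly in the epidermis.

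bcf-1 (F57F4.4) lies on chromosome V at 6401379 to 6408783 and gfi-1 (F57F4.3) at 6392537 to 6399931, both on the minus strand of WBcel235, the build named in the submitters' processing notes. The gap between them is 1447 bp, and gfi-1 is downstream of bcf-1. The annotated transcripts are 6425 nt for bcf-1 and 6633 nt for gfi-1, with 5 exons each. Of the 5 exons, 3 have the same length in both genes, at 224, 5536 and 187 nt. The exon of 5536 nt makes up 86.2% of the bcf-1 transcript and 83.5% of the gfi-1 transcript. The outer exons differ, at 126 and 352 nt in bcf-1 and 136 and 550 nt in gfi-1. The coding regions span 2090 codons in bcf-1 and 2153 codons in gfi-1. The sources used here do not say how the authors assigned reads that match both genes, so each gene's own value is uncertain.

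**Figure D1:**
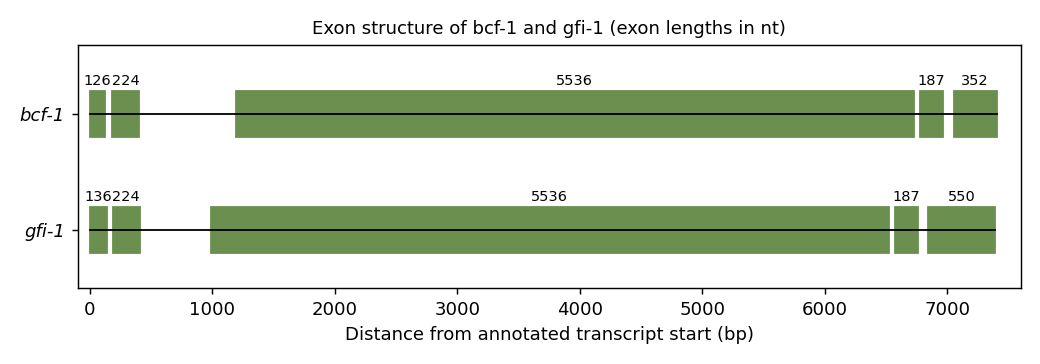
Exons (boxes, with lengths in nt) and introns (lines) of bcf-1 and gfi-1 against the distance from the annotated transcript start in bp. The 3 inner exons have equal lengths in both genes, at 224, 5536 and 187 nt.

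elt-2 (C33D3.1) lies on the plus strand of chromosome X at 10481240 to 10483441, with a transcript of 1558 nt in 9 exons and 433 codons. elt-7 (C18G1.2) lies on the plus strand of chromosome V at 4770670 to 4773086, and 2 transcripts are annotated, of 841 and 351 nt. The elt-7 gene is 1619450 bp from gfi-1.

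The library sums ran from 659249 to 668784 FPKM in the mutant and from 671119 to 687573 FPKM in N2, and the sequencing depth behind them is unknown. The genotypes separated on the first principal component (80.4% of the variance), and on the second, N2 replicate 1 lay apart from the other N2 libraries, at 28.9 against -14.9 and -13.4. Changes below, on the log2(FPKM + 1) scale, are the mutant mean minus the N2 mean, tested in limma over 13576 genes with Benjamini-Hochberg adjustment, and a gene is said to have risen or fallen at an adjusted p under 0.05. The median change of all tested genes was 0.24 on that scale.

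The gene named in the mutant's genotype was low in all libraries labelled mutant. bcf-1 was at 63.7, 72.1 and 60.01 FPKM in the 3 mutant libraries and at 374, 412 and 499 FPKM in the 3 N2 libraries. gfi-1 was at 72.5, 79.98 and 68.8 FPKM in the mutant libraries and at 377, 425 and 518 FPKM in the N2 libraries. For both genes every mutant library lay far below every N2 library. In whole animals, fewer cells of a tissue and less RNA per cell cannot be told apart. bcf-1 averaged 65.3 ± 6.20 FPKM in the mutant and 428 ± 64.1 FPKM in N2 (SD, n = 3 each), a log2 change of -2.69 (SE 0.14, limma adjusted p = 3.6e-06). gfi-1 averaged 73.7 ± 5.71 FPKM in the mutant and 440.4 ± 71.7 FPKM in N2 (SD, n = 3 each), a log2 change of -2.55 (SE 0.14, limma adjusted p = 5.0e-06). Relative to the median of all genes these changes were -2.92 and -2.79. Without N2 replicate 1 they were -2.78 for bcf-1 and -2.66 for gfi-1.

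In the deposited values bcf-1 was reduced in the mutant but not absent. How reads that match both genes were assigned is not known, so whether bcf-1 RNA itself remained is uncertain. Among all rows of a library ordered by FPKM, bcf-1 held places 1340 to 1740 in the mutant libraries and places 257 to 301 in the N2 libraries. gfi-1 held places 1208 to 1507 in the mutant libraries and 248 to 299 in the N2 libraries. With the FPKM of both rows summed, the pair was at 136, 152 and 129 FPKM in the mutant libraries and at 752, 837 and 1017 FPKM in the N2 libraries. The summed pair had a log2 change of -2.63 (SE 0.14, limma adjusted p = 4.1e-06). Among falls over all tested genes, ordered from the largest, bcf-1 was number 97 and gfi-1 number 112.

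In the deposited values gfi-1 stayed close to bcf-1 in level in both genotypes. How reads that match both genes were assigned is not known, so this closeness is uncertain. The gfi-1 level divided by that of bcf-1 was 1.14, 1.11 and 1.15 in the mutant libraries and 1.01, 1.03 and 1.04 in the N2 libraries. gfi-1 was the higher of the pair in 6 of 6 libraries, though the ranges of the genes overlapped within each genotype. The ratio did not overlap between genotypes and was 1.10-fold higher in the mutant (exact permutation test on log2 ratios, two-sided, p = 0.1, and 0.1 adjusted over the 3 ratios tested). With 3 libraries against 3, this exact test cannot give a p below 0.1.

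All 4 genes were lower in the mutant, with no overlap between the genotypes. Of all 13576 tested genes, 15% fell, 34.6% rose and 49.6% passed the threshold in either direction. The groups did not overlap, with the mutant below N2, in 18% of tested genes, and in either direction in 58.4%.

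**Figure D2:**
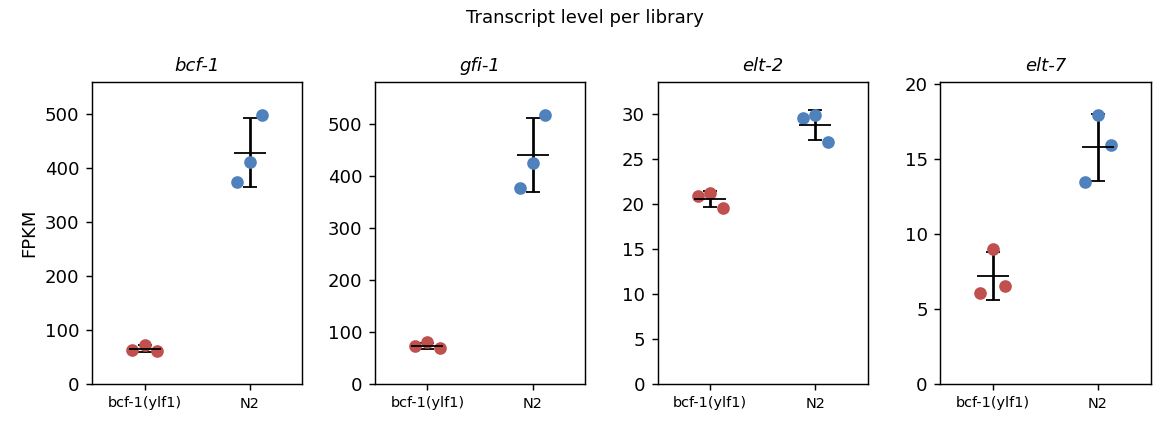
FPKM (y axis, from 0, separate scale per gene) of bcf-1, gfi-1, elt-2 and elt-7 in the 3 bcf-1(ylf1) libraries and the 3 N2 libraries; points are libraries, and bars are the mean and SD. Every mutant point lies below every N2 point for each gene, with bcf-1 at 65.3 in the mutant and 428 in N2 on average and elt-2 at 20.5 in the mutant and 28.7 in N2.

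elt-2, the main intestinal regulator, fell by less than the pair. It was at 20.9, 21.2 and 19.5 FPKM in the mutant libraries and at 29.5, 29.9 and 26.8 FPKM in the N2 libraries. The libraries of each genotype lay close together, and the highest mutant library was below the lowest N2 library. elt-2 averaged 20.5 ± 0.908 FPKM in the mutant and 28.7 ± 1.68 FPKM in N2 (SD, n = 3 each), with a log2 change of -0.47 (SE 0.12, limma adjusted p = 0.012). Without mutant replicate 1 the change was -0.48 (limma adjusted p = 0.0555) and without mutant replicate 3 it was -0.43 (limma adjusted p = 0.0679), so the call was lost in both cases. Over all 12 alternatives its adjusted p ran from 0.00121 to 0.0679. The change was -0.45 without N2 replicate 1, and -0.73 after median-ratio scaling.

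elt-7, whose product acts together with ELT-2, was at 6.03, 8.99 and 6.51 FPKM in the mutant libraries and at 13.5, 17.9 and 15.9 FPKM in the N2 libraries. Mutant replicate 2 was the highest mutant library and still lay below all N2 libraries. elt-7 averaged 7.17 ± 1.59 FPKM in the mutant and 15.8 ± 2.24 FPKM in N2 (SD, n = 3 each), with a log2 change of -1.04 (SE 0.18, limma adjusted p = 0.0015). It passed the threshold under all 12 alternatives, with changes from -1.30 to -0.94, and without N2 replicate 1 its change was -1.15.

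Levels of the genes relative to one another also differed between the genotypes, in tests with too few libraries to reach the threshold. The ratio of elt-7 to elt-2 was 0.289, 0.424 and 0.334 in the mutant libraries and 0.456, 0.600 and 0.592 in the N2 libraries. The genotypes did not overlap, and the ratio was 1.58-fold lower in the mutant (exact permutation test on log2 ratios, two-sided, p = 0.1, the smallest it can give, and 0.1 adjusted over the 3 ratios). The ratio of bcf-1 to elt-2 was 3.05, 3.40 and 3.08 in the mutant libraries and 12.7, 13.8 and 18.6 in the N2 libraries. It was 4.67-fold lower in the mutant, again without overlap and with the same exact permutation p of 0.1 and adjusted value of 0.1. In order of level, gfi-1 and bcf-1 were followed by elt-2 and then elt-7 in both genotypes, and elt-2 was above elt-7 in 6 of 6 libraries.

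**Figure D3:**
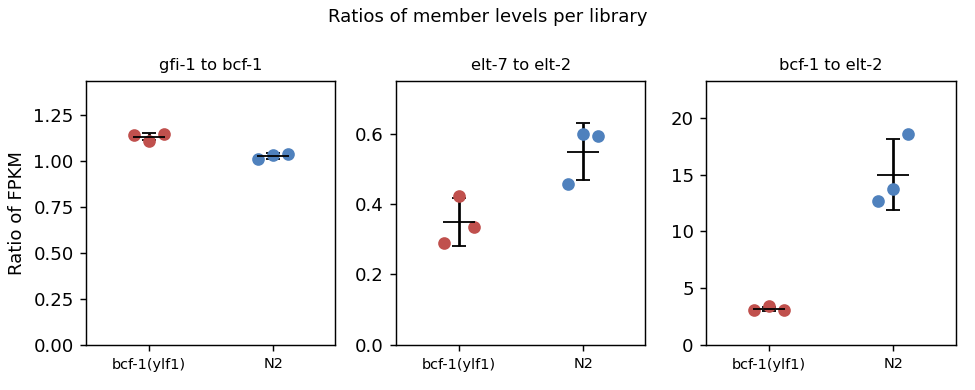
Ratio of FPKM (y axis, from 0) per library for gfi-1 to bcf-1, elt-7 to elt-2 and bcf-1 to elt-2; points are libraries, and bars are the mean and SD over 3 libraries per genotype. The bcf-1 to elt-2 ratio lies between 3.05 and 3.40 in the mutant and between 12.7 and 18.6 in N2, while the gfi-1 to bcf-1 ratio stays between 1.01 and 1.15.

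In the rest of the GATA family, epidermal factors rose. Of 11 GATA factor genes, 7 passed the filter on low values. Of these 4 rose, 2 fell (elt-2 and elt-7) and 1 did not pass the test, while 34.6% of all tested genes rose and 15% fell. elt-1, a regulator of epidermal fate, was at 9.82, 10.5 and 9.61 FPKM in the mutant libraries and at 3.20, 2.99 and 3.94 FPKM in the N2 libraries. Its log2 change was 1.33 (SE 0.15, limma adjusted p = 0.00013). elt-3, active in the hypodermis, averaged 24.6 ± 4.73 FPKM in the mutant and 15.4 ± 2.02 FPKM in N2 (log2 change 0.63, limma adjusted p = 0.0136).

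egl-18 and elt-6 are adjacent GATA genes that act in the lateral epidermal seam cells. egl-18 averaged 6.86 ± 2.04 FPKM in the mutant and 3.47 ± 0.863 FPKM in N2 (log2 change 0.80, limma adjusted p = 0.0173). elt-6 averaged 3.88 ± 1.22 FPKM in the mutant and 1.53 ± 0.320 FPKM in N2 (log2 change 0.93, limma adjusted p = 0.0040). In all 4 of these epidermal factors every mutant library lay above every N2 library, as in 40.4% of all tested genes. The rises of elt-3 and egl-18 were not called after median-ratio scaling, nor those of elt-3, egl-18 and elt-6 after quantile normalisation, so 2 and 1 rises were left. Without mutant replicate 1 or 3 the family held 1 fall, since elt-2 was lost, and the rise of egl-18 was also lost without N2 replicate 2, mutant replicate 1 or mutant replicate 2.

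elt-4 is a short GATA gene that ends 5280 bp before elt-2 starts on chromosome X. It was at 0.256, 1.10 and 0.646 FPKM in the mutant libraries and at 0.994, 1.36 and 1.38 FPKM in the N2 libraries. The genotypes overlapped, and the log2 change of -0.45 did not pass the test (limma adjusted p = 0.0733), although it did after median-ratio scaling, after quantile normalisation and with the replicate number as a block (limma adjusted p = 0.0364, 0.00967 and 0.0364). The genes of the embryonic cascade, end-1, end-3, med-1 and med-2, did not pass the filter, and none exceeded 0.305 FPKM in any library. end-1 was listed at 0 in all mutant libraries, and med-1 and med-2 were listed at 0 in all N2 libraries.

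Summed over elt-2, elt-4 and elt-7, intestinal GATA transcripts were at 27.2, 31.3 and 26.6 FPKM in the mutant libraries and at 43.99, 49.2 and 44.1 FPKM in the N2 libraries. Summed over elt-1, elt-3, egl-18 and elt-6, epidermal GATA transcripts were at 42.2, 54.6 and 39.0 FPKM in the mutant libraries and at 23.95, 20.8 and 26.6 FPKM in the N2 libraries. The epidermal sum was thus the larger in every mutant library and the smaller in every N2 library. The ratio of the intestinal to the epidermal sum was 0.573 to 0.683 in the mutant and 1.66 to 2.36 in N2. This grouping was made after the values were seen and has no test.

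**Figure D4:**
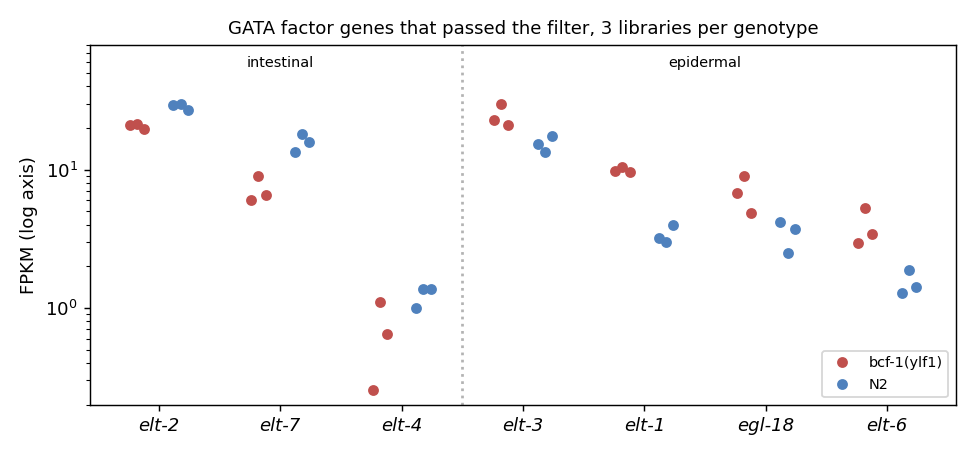
FPKM on a log axis of the 7 GATA factor genes that passed the filter, with 3 bcf-1(ylf1) libraries (left of each pair) and 3 N2 libraries (right). elt-2 and elt-7 are lower in the mutant, elt-4 overlaps, and elt-3, elt-1, egl-18 and elt-6 are higher in the mutant, with elt-1 at 9.97 in the mutant and 3.38 in N2 on average.

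Genes listed as intestine markers moved in both directions, and none fell as far as bcf-1 and gfi-1. The yolk protein genes vit-6 and vit-2, described below and not in this list, fell further. Of 19 tested markers, 9 fell, 4 rose and 6 did not pass the test, while 15% of all tested genes fell and 34.6% rose. The median change of the markers was -0.10, against 0.24 for all tested genes. Of the 19, 0 had a lower log2 change than bcf-1 or gfi-1, 4 had a lower one than elt-7 and 8 a lower one than elt-2. slcf-1, a transporter gene, had the lowest, at 6.90 ± 1.20 FPKM in the mutant and 25.3 ± 4.85 FPKM in N2 (log2 change -1.73, limma adjusted p = 0.00012). aqp-4, a water channel gene, was at 26.9 ± 1.83 FPKM in the mutant and 91.2 ± 17.3 FPKM in N2 (log2 change -1.71, limma adjusted p = 4.3e-05).

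ifb-2, an intermediate filament gene of the intestine, stood near bcf-1 in N2. It was at 175, 178 and 171 FPKM in the mutant libraries and at 417, 453 and 416 FPKM in the N2 libraries (log2 change -1.29, limma adjusted p = 2.5e-05). cpr-1, which encodes a cathepsin B-like protease, rose to 648 ± 12.6 FPKM in the mutant, against 177 ± 44.1 FPKM in N2 (log2 change 1.90, limma adjusted p = 3.9e-05). The other markers that rose were dlg-1, asp-1 and let-413, with log2 changes of 0.99, 0.54 and 0.43 (limma adjusted p = 0.00055, 0.0182 and 0.0359). The list was not restricted to genes active in the intestine alone, and the tissue source of its changes was not tested. The proton pump gene vha-6, the peptide transporter gene pept-1 and erm-1, which encodes a protein of the apical membrane, did not pass the test, with log2 changes of 0.25, -0.10 and 0.14 (limma adjusted p = 0.0645, 0.473 and 0.315). The markers summed to 9745 to 11685 FPKM in the mutant and 7449 to 9691 FPKM in N2, mostly asp-1, and no marker was at 0 in either genotype. Rises numbered 2 in each of 4 alternatives, namely median-ratio scaling and the omission of N2 replicate 1, N2 replicate 2 or mutant replicate 1.

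A list of 13 intestinal genes tied by general knowledge to GATA sites or ELT-2 was split too, but it shares genes with other lists. Its genes ges-1, act-5, ifb-2, pho-1, asp-1, cpr-1, mtl-2 and pgp-1 are also intestine markers, and vit-2 and vit-6 are also adult stage markers. Of 12 that passed the filter, 6 fell, 3 rose and 3 did not pass the test, while 15% of all tested genes fell and 34.6% rose. The median change of the list was -0.40, against 0.24 for all tested genes. The esterase gene ges-1, a long-studied ELT-2 target, was at 32.2, 25.2 and 33.1 FPKM in the mutant libraries and at 53.9, 70.7 and 55.2 FPKM in the N2 libraries (log2 change -0.97, limma adjusted p = 0.0011). The largest falls in the list were of the yolk protein genes vit-6 and vit-2, with log2 changes of -6.81 and -6.76, and the next was of ifb-2. The rises were of cpr-1, asp-1 and ftn-1, the last a ferritin gene at 12.8 ± 0.468 FPKM in the mutant and 7.92 ± 2.47 FPKM in N2 (log2 change 0.67, limma adjusted p = 0.0296). Without mutant replicate 1 there were 5 calls in the list, 1 of them a rise, and 1 rise was left after either scaling.

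Other transcription factors listed as acting in the intestine rose in some cases and fell in others. The tissue source of these changes in whole animals was not tested. Of 24 tested, 6 rose, 4 fell and 14 did not pass the test, while 34.6% of all tested genes rose and 15% fell, with a median change of 0.17, against 0.24 for all tested genes. The largest fall was of ceh-60, a homeobox gene that controls yolk genes, at 8.95, 7.43 and 7.59 FPKM in the mutant libraries and 35.97, 41.96 and 35.9 FPKM in the N2 libraries (log2 change -2.12, limma adjusted p = 1.1e-05). nhr-8, a nuclear hormone receptor gene, was at 17.5 ± 0.761 FPKM in the mutant and 41.97 ± 4.62 FPKM in N2 (log2 change -1.21, limma adjusted p = 0.00012). sbp-1, the worm SREBP gene, was at 10.1 ± 0.547 FPKM in the mutant and 22.3 ± 1.10 FPKM in N2 (log2 change -1.06, limma adjusted p = 0.00021). blmp-1, a zinc finger repressor gene, rose to 32.1 ± 0.823 FPKM in the mutant, against 16.5 ± 2.41 FPKM in N2 (log2 change 0.93, limma adjusted p = 0.00071). After median-ratio scaling 3 rose and 7 fell.

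Markers of adult stage and of other tissues differed between the genotypes together with these genes. All 9 adult stage markers, the 6 yolk protein genes and col-19, col-7 and col-62, which encode collagens of the adult cuticle, fell. Of all tested genes, 15% fell. They summed to 26.7 to 67.3 FPKM in the mutant and 3254 to 5308 FPKM in N2, and no marker was at 0 in all libraries of a genotype. These markers of the adult stage were thus abundant in N2 and low in the mutant, which carries the same adult label. vit-4, which passed the filter through N2 alone, was at 0.628 ± 0.299 FPKM in the mutant and 213 ± 34.6 FPKM in N2 (log2 change -7.04, limma adjusted p = 1.9e-07). vit-3, vit-1 and vit-5 had log2 changes of -6.81, -5.09 and -7.25. Because vit-3, vit-4 and vit-5 closely resemble each other, reads may have been shared among them and their single values are uncertain.

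Within N2 the order of libraries was not shared between bcf-1 and the adult markers. Their sum was 5308, 3254 and 4781 FPKM in N2 replicates 1, 2 and 3, while bcf-1 was lowest in replicate 1. In the mutant the sum was 43.7, 67.3 and 26.7 FPKM in replicates 1, 2 and 3, and bcf-1 was also highest in replicate 2 and lowest in replicate 3. These orders rest on 3 libraries per genotype and were not tested.

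Of 8 hypodermis markers, which include elt-3, 7 rose and 0 fell, while 34.6% of all tested genes rose and 15% fell. The list summed to 1138 to 1286 FPKM in the mutant and 289.8 to 442 FPKM in N2. wrt-10, dpy-7, bli-1 and qua-1 rose by 2.71, 2.65, 2.11 and 1.74 log2 units. Of 11 pharynx markers tested out of 12, 9 rose and 0 fell, against the same shares of all tested genes. Among the rises was ceh-22, which passed the filter through the mutant alone. The pharynx list summed to 312 to 357 FPKM in the mutant and 84.6 to 129 FPKM in N2. peb-1, myo-1, tnc-2 and tni-4 had log2 changes of 2.78, 2.55, 2.27 and 2.01. No marker of these lists was at 0 in all libraries of a genotype. The part of stage and of tissue makeup in the changes of bcf-1, gfi-1, elt-2, elt-7 and the other GATA genes was not tested.

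**Figure D5:**
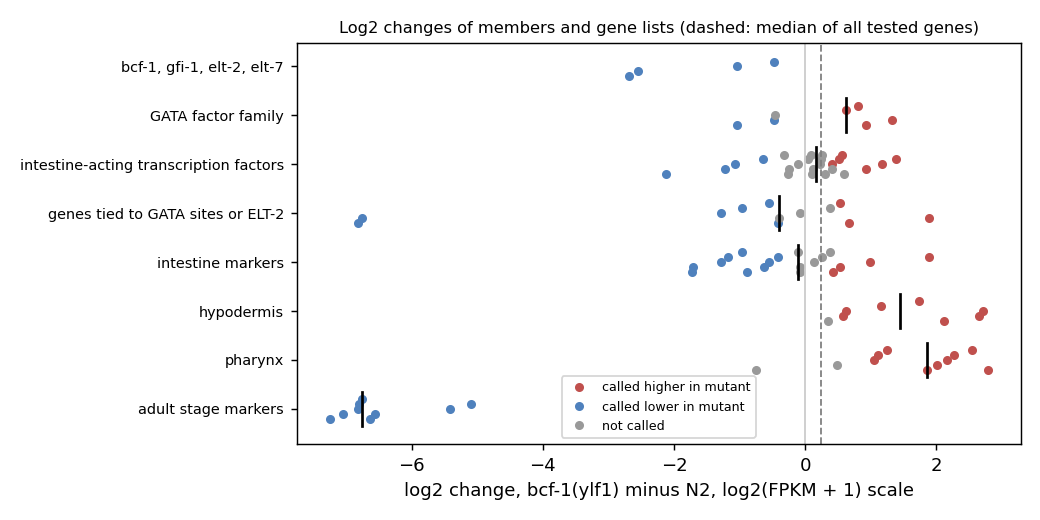
Log2 change, bcf-1(ylf1) minus N2, on the log2(FPKM + 1) scale (x axis) for the 4 genes and 7 gene lists; points are tested genes, coloured by call, black bars are list medians and the dashed line is the median of all tested genes, 0.24. bcf-1 and gfi-1 lie to the left of every intestine marker, and all adult stage markers lie below -5. Among genes tied to GATA sites or ELT-2, vit-6 and vit-2 lie further left than the pair.

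Beside the pair, F57F4.1 was the only neighbour that could be tested. Of the 3 annotated genes on each side, 4 are non-coding RNA genes with no row in the table, and F57F4.2 was below the filter, at no more than 0.154 FPKM. F57F4.1, on the opposite strand, overlaps the 3' end of gfi-1 by 30 bp. It was at 14.5, 12.5 and 17.0 FPKM in the mutant libraries and at 10.7, 6.52 and 7.55 FPKM in the N2 libraries. All mutant libraries lay above all N2 libraries, as in 40.4% of all tested genes (log2 change 0.77, limma adjusted p = 0.0106). Of all tested genes, 34.6% rose.

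Across the 6 libraries, the tested gene whose pattern was most like that of bcf-1 was gfi-1, and the reverse held. Likeness was the root mean square distance between log2(FPKM + 1) profiles, each centred on its own mean. It was 0.0709 for the pair. Since the assignment of reads that match both genes is not known, this likeness of the pair is uncertain. The next nearest to bcf-1 were the collagen gene col-133 (0.0784), C18H7.11 (0.146), grl-27 (0.149) and ltah-1.2 (0.170). For gfi-1 they were col-133 (0.113), grl-27 (0.114), C18H7.11 (0.140) and the collagen gene col-34 (0.152). col-133 had a level of 214 ± 19.7 FPKM in the mutant and 1381 ± 91.3 FPKM in N2, a log2 change of -2.68 (limma adjusted p = 1.6e-06).

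elt-2 and elt-7 had other nearest genes. Nearest to elt-2 were ugt-58 (0.0347), B0250.5 (0.0361), lact-9 (0.0412), C05D12.3 (0.0443) and pgm-2 (0.0466), with log2 changes from -0.49 to -0.40. Nearest to elt-7 were far-6 (0.0747), which encodes a fatty acid and retinol binding protein, C34F6.5 (0.0762), ZC239.16 (0.0801), the glutathione S-transferase gene gst-9 (0.0840) and C35C5.10 (0.0906), with log2 changes from -1.12 to -0.98. elt-7 was at a distance of 0.344 from elt-2, which was number 1076 in the order of genes nearest to elt-7. In the reverse order, elt-7 was number 4536 among the genes nearest to elt-2. All genes share these 6 libraries, and by Pearson correlation 2, 1, 1 and 0 of the 5 genes nearest to bcf-1, gfi-1, elt-2 and elt-7 were again among the 5 nearest.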

How the data were processed

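The authors deposited 1 value per gene and library for 6 libraries, read here as FPKM. The unit is inferred, since no header or label names it, and TPM with rows left out is possible. Per the submitters' processing notes fastp was used and the build was WBcel235. Aligner, quantifier, annotation release and strand setting: not given in the sources used here. Whole reads could not be recovered: 20.3% to 39.4% of value times length, in genes above 0 in 1 library, fell within 10% of the most common one. RefSeq locus tags matched 19959 of 20894 rows.

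Genes that reached 1 FPKM in 3 or more libraries were fitted with limma 3.58.1 (R 4.3.3) on log2(FPKM + 1), genotype as the only term, a mean-variance trend, two-sided tests and Benjamini-Hochberg adjustment over 13576 genes. This fits the count-free unit, as planned. The fit was tested on simulated data. Ratios had exact permutation tests (scipy 1.17.1). Gene structures came from the Ensembl and RefSeq annotations of WBcel235.

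The genes and lists were chosen with earlier results of these data known. Lists were compiled from general knowledge. Named genes were the 4 genes, the GATA family, the 3 annotated genes on each side of the pair, up to 4 genes with the smallest p per list and the 5 nearest by pattern, and others were named to spell out counts after their values were seen.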

Additional observations from a re-analysis of the deposited data

How the results depend on the processing

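The falls of bcf-1, gfi-1 and elt-7 passed the threshold under all 12 alternatives (pseudocount 0.1, no filter, median-ratio scaling, quantile normalisation, no trend, the replicate block and 6 omissions of a library), at -2.96 to -2.49, -2.82 to -2.35 and -1.30 to -0.94. With libraries left out, the change of elt-2 ran from -0.51 to -0.43, and it lost its call without mutant replicate 1 (-0.48) and without mutant replicate 3 (-0.43). Calls among the genes tied to GATA sites or ELT-2 numbered 5 to 8 with libraries left out. Over 51 other named genes, 578 values kept direction and call, 25 lost the call and 3 gained it. The causes were not tested. No log2 change of a named gene and no ratio changed sign, while the median of all tested genes, 0.24, became -0.0072 with median-ratio scaling (quantile normalisation gave 0.07). The ratios kept their direction with libraries left out, where p = 0.2 was the value of the exact permutation test. Same-numbered libraries did not deviate together (correlations of 0.01, -0.07 and -0.28), and differently numbered ones had correlations from -0.20 to 0.34. With so few libraries these values cannot show whether the numbers pair them. With the replicate block 6172 genes were called, against 6738 without it, elt-2 had a limma adjusted p of 0.0437, and elt-4 gained its call (limma adjusted p = 0.0364). Proteins related to BCF-1, protein alignments and promoter motifs were not analysed here.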

Other observations

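Germline and body wall muscle markers were the remaining lists of other tissues. Of 12 germline markers, 3 rose, 2 fell and 7 did not pass the test, while 34.6% of all tested genes rose and 15% fell. him-3 and htp-3, genes of the meiotic chromosome axis, had log2 changes of 0.87 and 0.84 (limma adjusted p = 0.00665 and 0.0101). nos-2 and puf-5, genes of RNA-binding proteins, had log2 changes of -1.13 and -0.94 (limma adjusted p = 0.0269 and 0.0434), and each lost its call when libraries were left out. The germline list summed to 788 to 867 FPKM in the mutant and 489.8 to 973 FPKM in N2, so the genotypes overlapped, and N2 replicate 1 had the highest sum. Of 8 body wall muscle markers, 5 rose and 0 fell, again against 34.6% and 15% of all tested genes. They summed to 4139.7 to 4398 FPKM in the mutant and 3349.5 to 3917 FPKM in N2. unc-22, unc-54, myo-3 and unc-89 had log2 changes of 1.45, 0.78, 0.76 and 0.85.

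The nearest gene with a row upstream of bcf-1, cht-6, named after its values were seen, starts 6228 bp away. It was at 3.63, 2.66 and 4.02 FPKM in the mutant libraries and at 1.41, 1.68 and 2.08 FPKM in the N2 libraries (log2 change 0.70, limma adjusted p = 0.00777). Every mutant library lay above every N2 library, as in 40.4% of all tested genes, and 34.6% of all tested genes rose.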
